A study of Mus musculus with 2 samples.

Results

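Glycolysis and hypoxia genes were described across the cell classes of mouse pancreas as a module of 32 genes, of 31253 genes in the count matrices. The members were chosen by name: 18 are enzymes and transporters of glucose breakdown, and 14 are hypoxia genes, the oxygen sensing machinery and its known targets. Single-cell suspensions were captured on the BD Rhapsody system, which tags each transcript molecule with a unique molecular identifier (UMI). The series has 2 libraries, 1 per group: CP, from mice whose treatment label is Cae, and CP+EVs, from mice given Cae and extracellular vesicles. The title given to the series names chronic pancreatitis and vesicles made on exercise, while the condition label on both libraries reads acute pancreatitis. No untreated library was analysed here, and the number, age and strain of the mice are not stated in the labels. Since each group is 1 library, nothing was tested and no replicate check exists, and each difference compares these libraries, not the treatments.

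Glycolysis splits glucose into pyruvate in the cytosol and yields ATP without oxygen. Lactate dehydrogenase turns pyruvate into lactate, and monocarboxylate transporters carry the lactate out of the cell. When oxygen falls, the prolyl hydroxylases no longer mark the transcription factor subunit HIF-1alpha for destruction, and the HIF complex then binds its response elements and raises most enzymes of the pathway. Activated neutrophils and macrophages are known for their reliance on glycolysis, also where oxygen is plentiful.

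The HIF complex recognises a short core, most often ACGTG and in a variant form GCGTG, and the 250 bases upstream of each RefSeq start (GRCm38.p6) were searched for both on both strands. The motif CACGTG holds ACGTG on each strand and was counted 2 times where it occurred. Promoters were matched for 31 of the 32 members, 44 promoters in all. ACGTG stood in 52.3% of the members' promoters and in 16.6% of all 32851 promoters of the same length, and GCGTG in 54.5% and 28.2%. Either core stood in 79.5% and 38.6%, and in no searched promoter of Gpi1, Tpi1 and Mif. The members were chosen by name, with known hypoxia targets among them, so these shares are not independent of the choice. Promoters and not genes were counted, and the set of all promoters was not matched to the members in base content or level. A match is a string of letters and not a shown binding site, and no binding was measured here. The sequences below belong to 4 members whose levels are described further on: Egln3 (minus strand, chr12:54203875-54204124), Ldha (plus strand, chr7:46845554-46845803, of its 2 promoters the one with most matches), Pgk1 (plus strand, chrX:106186850-106187099) and Adm (plus strand, chr7:110627407-110627656). They run in the direction of transcription, and capitals mark the matches to either core on either strand.
Egln3: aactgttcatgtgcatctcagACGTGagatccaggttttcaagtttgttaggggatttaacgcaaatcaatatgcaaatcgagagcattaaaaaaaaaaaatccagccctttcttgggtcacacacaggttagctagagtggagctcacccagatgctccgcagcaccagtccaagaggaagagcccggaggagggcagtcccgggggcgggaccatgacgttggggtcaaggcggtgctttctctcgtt
Ldha: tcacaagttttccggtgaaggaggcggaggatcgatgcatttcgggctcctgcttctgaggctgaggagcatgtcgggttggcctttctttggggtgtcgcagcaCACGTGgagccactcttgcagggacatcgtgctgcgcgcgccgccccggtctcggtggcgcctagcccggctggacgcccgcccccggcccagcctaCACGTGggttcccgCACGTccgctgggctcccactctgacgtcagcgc
Pgk1: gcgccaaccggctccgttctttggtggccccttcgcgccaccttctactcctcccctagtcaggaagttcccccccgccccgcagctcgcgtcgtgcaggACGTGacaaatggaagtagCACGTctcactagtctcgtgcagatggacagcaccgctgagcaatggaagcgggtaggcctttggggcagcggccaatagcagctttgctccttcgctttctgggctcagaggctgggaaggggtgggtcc
Adm: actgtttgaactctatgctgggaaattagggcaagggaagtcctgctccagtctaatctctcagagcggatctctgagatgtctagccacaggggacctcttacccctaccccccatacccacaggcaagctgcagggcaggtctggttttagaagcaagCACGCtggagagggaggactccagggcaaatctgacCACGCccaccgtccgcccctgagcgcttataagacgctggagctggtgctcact

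The Ldha promoter held 5 matches of ACGTG and that of Pgk1 held 2. The Egln3 promoter held 1 match of ACGTG. In the Adm promoter ACGTG was not found and GCGTG was found 2 times, each on the opposite strand.

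The CP library held 51652425 UMIs in 13507 barcodes (median 1417 UMIs) and the CP+EVs library 38532775 UMIs in 8845 barcodes (median 2884). The members took 0.346% of all UMIs in CP and 0.203% in CP+EVs. Barcodes were sorted into classes by the UMIs of marker genes, so a class is like the named cell type, and 46.3% of the kept barcodes in CP and 65.5% in CP+EVs fell into the 8 classes used. The neutrophil class had 2365 barcodes in CP and 27 in CP+EVs, and the acinar class 6 and 2778. The other classes had 735 and 89 barcodes (monocyte), 456 and 173 (macrophage), 1764 and 1463 (fibroblast), 556 and 446 (T cell), 327 and 727 (B cell) and 6 and 57 (ductal). All defining markers were present in each class, except that Bhlha15 and Rbpjl were at 0 in the 6 acinar barcodes of CP and Cftr in its 6 ductal ones. Libraries share 118 barcode sequences. Levels are CPM, UMI counts of the class scaled to the same total in each, with exact Poisson 95% intervals, which cover counting error only. Libraries were compared in the 5 classes with at least 50 barcodes in each.

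**Figure D1:**
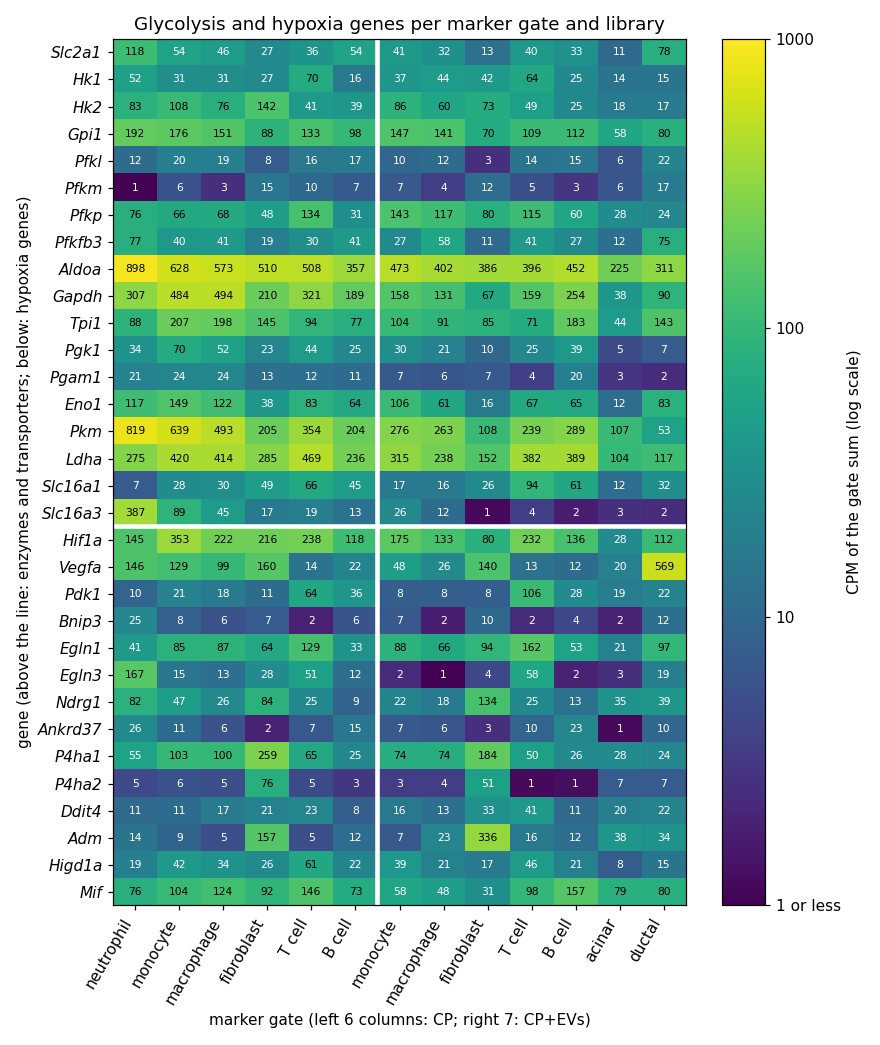
Level of each of the 32 members (rows; 18 enzymes and transporters above the line, 14 hypoxia genes below) in each marker class (columns; 6 CP classes on the left, 7 CP+EVs classes on the right), as CPM of the class sum on a log colour scale, with values rounded. Slc16a3 and Egln3 stood highest in the CP neutrophil column (387 and 167 CPM), P4ha1, P4ha2 and Adm in the fibroblast columns and Vegfa in the ductal column (569 CPM); classes with under 50 barcodes are not drawn.

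Within CP the module was not ordered in the same way in all classes: 9 members had their highest level in T cells, 9 in neutrophils, 7 in fibroblasts, 5 in monocytes and 2 in macrophages. The interval of that level lay apart from the next class for 7, 7, 4, 3 and 0 of them. The same count over all genes was not made, so this spread is not shown to be particular to the members. Neutrophils were compared with macrophages of the same library, where 26 members had at least 20 CPM in 1 of the classes and 20 UMIs in all. At least 1.5-fold higher in neutrophils were 10 members and at least 1.5-fold lower 10, where 22.9% and 47.5% of 6667 genes were. The members' median log2 ratio was 0.15 against −0.49 over those genes. Of 16 measured enzymes and transporters 6 were higher and 5 lower, and of 10 measured hypoxia genes 4 were higher and 5 lower.

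Slc16a3 (mm10 chr11:120948480-120960868, plus strand) encodes MCT4, a monocarboxylate transporter of cells that export much lactate. It stood at 387 CPM (370 to 405) in neutrophils and at 44.8 CPM (37.6 to 53.0) in macrophages, 8.64-fold higher (7.26 to 10.4). The monocyte level was 88.6 CPM, the T cell level 19.0, the fibroblast level 17.5 and the B cell level 13.2, and the last 3 had intervals that overlapped between neighbours. After thinning to 1000 UMIs per barcode, 28.6% of 1950 neutrophil barcodes held an Slc16a3 UMI against 2.26% of 310 B cell barcodes, a class that should have little of it (45.0% and 3.67% before thinning, at median depths of 1780 and 2331 UMIs). The related Slc16a1, MCT1, which carries lactate in either direction, had the reverse order, with 7.25 CPM in neutrophils and 30.0 in macrophages, 4.13-fold lower (2.77 to 6.29). Its highest level in CP was in T cells, at 66.4 CPM.

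Egln3 (chr12:54178981-54203860, minus strand) encodes PHD3, an oxygen-dependent prolyl hydroxylase that is itself a HIF target. Its level was 167 CPM (156 to 179) in neutrophils and 12.5 (8.85 to 17.2) in macrophages, 13.3-fold higher (9.63 to 19.0). T cells came next with 51.2 CPM and fibroblasts with 28.2. Egln1, the related hydroxylase PHD2, was 2.09-fold lower in neutrophils (41.4 against 86.6 CPM), and Hif1a itself was 1.53-fold lower (145 against 222 CPM). The mitophagy receptor Bnip3 was 4.40-fold higher in neutrophils (24.6 against 5.60 CPM), Ankrd37 4.47-fold (26.5 against 5.93) and Ndrg1, a stress-induced gene, 3.14-fold (81.8 against 26.0). The other hypoxia genes lower in neutrophils were P4ha1, Higd1a and Mif. P4ha1, a subunit of the hydroxylase that matures collagen, had 55.5 against 100.1 CPM (1.8-fold) and Higd1a 19.5 against 34.2 (1.76-fold). Mif, a cytokine gene, had 76.2 against 124 CPM (1.62-fold), and neither core was found in its searched promoter. Egln3, Bnip3 and Ankrd37 reached 20 CPM in neutrophils and not in macrophages. Higd1a and the transporter gene Slc16a1 reached it in macrophages and not in neutrophils. Each of these was kept through 1 class only and could be called in that direction only.

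The glucose importer and several enzymes were higher in neutrophils: Slc2a1 2.56-fold (118 against 46.1 CPM), Pfkfb3, which makes the allosteric activator of phosphofructokinase, 1.86-fold (76.6 against 41.1), Hk1 1.68-fold, the pyruvate kinase gene Pkm 1.66-fold (819 against 493) and Aldoa 1.57-fold. Lower in neutrophils were the triose phosphate isomerase gene Tpi1, 2.25-fold (87.8 against 198 CPM), Gapdh 1.61-fold (307 against 494), Pgk1 1.51-fold and Ldha 1.5-fold. Only 27 barcodes formed the CP+EVs neutrophil class, too few to compare. In them Slc16a3 stood at 230 CPM (110 to 423) from 10 UMIs and Egln3 at 138 CPM (50.7 to 300) from 6 UMIs, and both intervals overlapped those of the CP neutrophils.

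**Figure D2:**
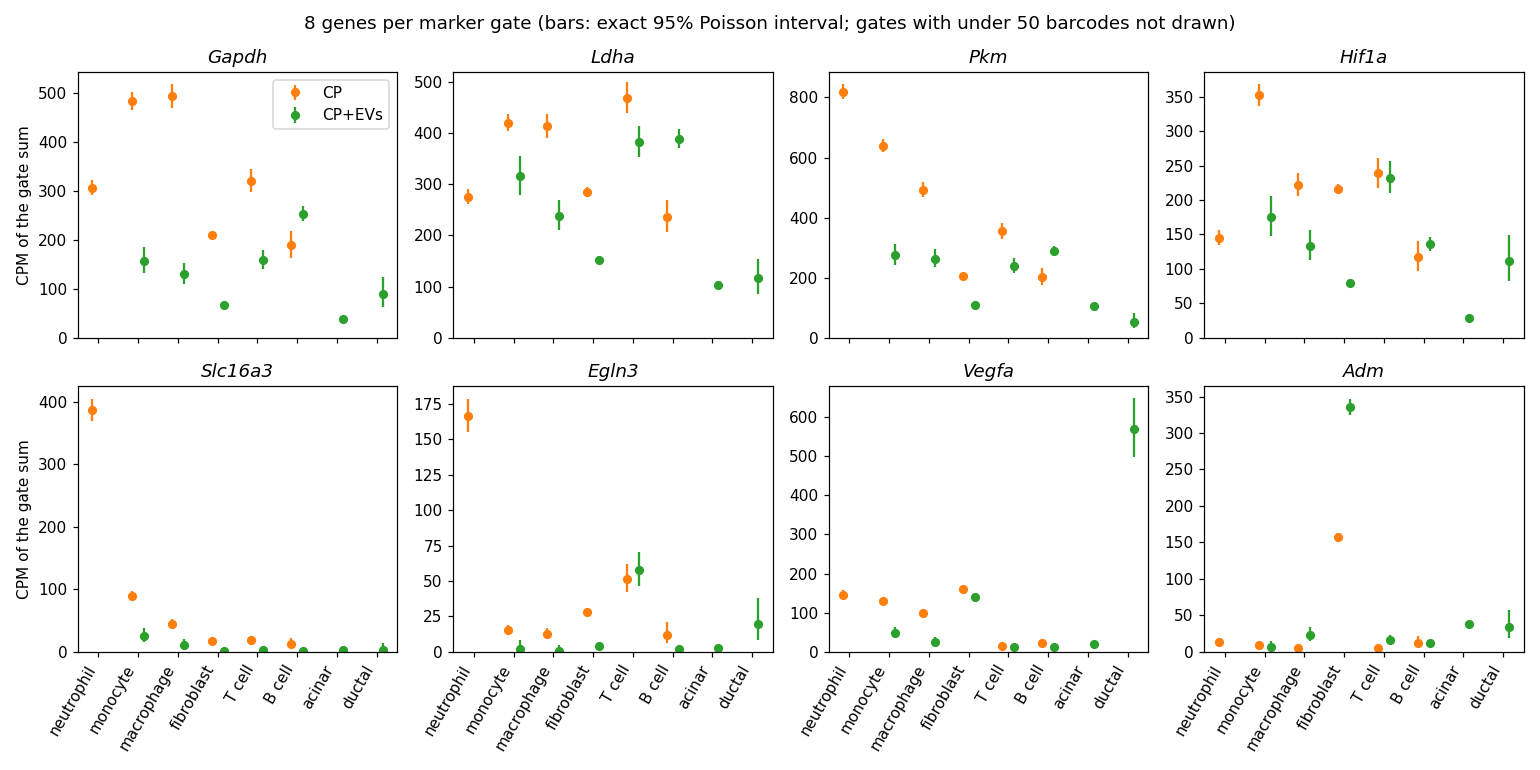
CPM of 8 members per marker class, each panel with its own linear axis from 0, CP in orange and CP+EVs in green; points are class sums and bars exact Poisson 95% intervals, and classes with under 50 barcodes are not drawn. Gapdh, Pkm and Hif1a were lower in CP+EVs in monocytes, macrophages and fibroblasts, Gapdh and Ldha were higher in CP+EVs in B cells, and Adm was higher in CP+EVs in fibroblasts (336 against 157 CPM).

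Monocytes and macrophages of CP differed by under 1.5-fold in 21 of 24 measured members. The other 3 were higher in monocytes and 0 were lower, where 5.28% and 8.11% of 6384 genes were. They were Hif1a (353 against 222 CPM, 1.59-fold), Slc16a3 (1.98-fold) and Ndrg1 (1.82-fold). In CP+EVs, with 89 and 173 barcodes, 4 of 22 members were higher in monocytes (Vegfa, Eno1, Slc16a3 and Higd1a) and 2 lower (Pfkfb3 and Adm), beside 14.2% and 9.99% of 6289 genes.

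Epithelial classes could be described only in CP+EVs. Of 21 measured members, 10 were higher in ductal than in acinar barcodes and 1 was lower, beside 81.9% and 8.77% of 7310 genes, a smaller share of the members than of all genes. Acinar barcodes gave 59.8% of their UMIs to digestive enzyme and Reg genes, which lowers the CPM of all others. Vegfa (chr17:46016993-46032369, minus strand), the gene of the angiogenic growth factor VEGF-A, stood apart in level: 569 CPM (498 to 647) in 57 ductal barcodes and 20.4 CPM (17.5 to 23.7) in 2778 acinar ones, 27.9-fold higher (22.8 to 34.1). The next class, fibroblasts, had 140 CPM (133 to 148). The 1 member at least 1.5-fold lower in ductal barcodes was Pkm, at 53.5 CPM in ductal and 107 in acinar barcodes. The CP+EVs ductal class also held 365 CPM of the pericyte markers, all from Rgs5 with the other 4 at 0, and 99.7 CPM of the mast cell markers, with 3 of 4 at 0, and their part in the Vegfa level was not tested. In the 6 ductal barcodes of CP Vegfa stood at 374 CPM (249 to 541).

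Between the libraries, more members were lower than higher in CP+EVs in monocytes, macrophages and fibroblasts. At least 1.5-fold lower were 12 of 24 measured members in monocytes, where 21.3% of 6493 genes were, 13 of 24 in macrophages (24.5% of 6566 genes) and 13 of 24 in fibroblasts (13.9% of 6741 genes). At least 1.5-fold higher were 1, 2 and 5 members, beside 14.9%, 11.4% and 13.3% of genes. In T cells 2 of 23 measured members were lower and 2 higher (8.68% and 5.67% of 6880 genes), and in B cells 4 of 22 were lower and 7 higher (15.8% and 15.2% of 6923 genes). The members' median log2 ratio of CP+EVs over CP was −0.60 in monocytes, −0.72 in macrophages, −0.71 in fibroblasts, −0.22 in T cells and 0.38 in B cells. Over all measured genes it was −0.14, −0.22, 0.04, −0.02 and −0.02 in the same classes. Of the 32 members, 18 were measured in all 5 classes and 3 in none (Pfkl, Pfkm and Bnip3). Among the 18, 0 were at least 1.5-fold lower in every class, beside 1.41% of 4746 genes. Whether the ratios differ between classes was not tested.

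**Figure D3:**
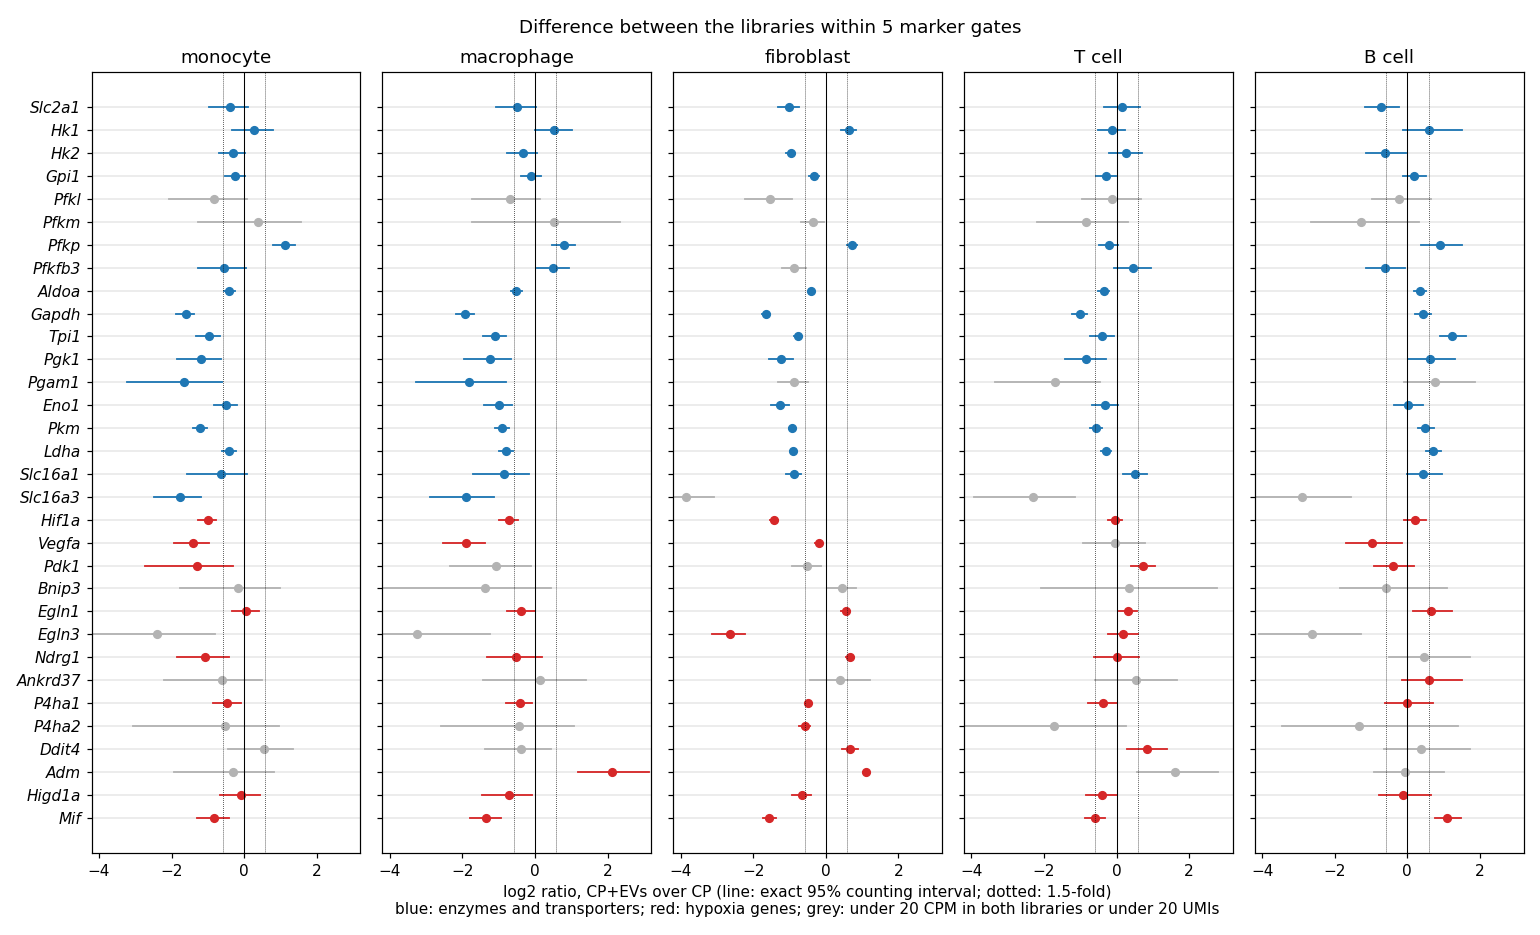
Log2 ratio of CP+EVs over CP for each member (rows) in 5 marker classes (panels); points are ratios of class sums, lines exact 95% counting intervals (cut off at the panel edge where longer), and dotted lines 1.5-fold. Blue marks enzymes and transporters, red hypoxia genes and grey members with under 20 CPM in both libraries or under 20 UMIs; most coloured points lie left of 0 in monocytes, macrophages and fibroblasts and near 0 in T cells, and Pfkp lies right of 0 in 4 of the 5 panels.

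Several features of the classes moved with these differences, and their part in them was not tested. The neutrophil markers summed to 1850 CPM in CP monocytes, 1419 in macrophages and 985.5 in fibroblasts, and to 168, 94.0 and 25.9 CPM in CP+EVs. The CP sums are 3.34%, 2.56% and 1.78% of their level in the CP neutrophil class, and at those shares neutrophil RNA would carry 10.3 of 484 CPM of Gapdh in monocytes and 14.6 of 205 CPM of Pkm in fibroblasts. Of Slc16a3 it would carry 12.9 of 88.6 CPM in monocytes, 9.92 of 44.8 in macrophages and 6.89 of 17.5 in fibroblasts. Acinar enzyme and Reg genes held 2.47% to 3.53% of UMIs in these CP+EVs classes and 0.0149% to 0.0485% in CP. Of the classes' own markers, those of monocytes summed to 12599 CPM in CP and 5029 in CP+EVs, those of fibroblasts to 66900 and 40237, and those of macrophages to 8771 and 8872. Within the macrophage class the monocyte markers summed to 4906 CPM in CP and 2295 in CP+EVs. Markers of unrelated classes stood at a median of 12.2% to 19.2% of their library level in the 6 CP classes, taken as a measure of free RNA, and at 13% to 16.4% in the CP+EVs classes other than acinar, where it was 30.1%. A member at or under that share of its own library level is called within the reach of free RNA. In a sum over barcodes, fewer cells of a state within the class and less RNA per cell cannot be told apart.

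Gapdh (chr6:125161715-125166467, minus strand), the glyceraldehyde phosphate dehydrogenase gene, had 484 CPM in CP and 158 in CP+EVs monocytes, 3.07-fold lower (2.58 to 3.68). In macrophages the levels were 494 and 131 CPM, 3.78-fold lower (3.19 to 4.51). In fibroblasts they were 210 and 67.1 CPM, 3.12-fold lower (2.88 to 3.40), and in T cells 321 and 159, 2.02-fold lower (1.75 to 2.34). B cells had 189 and 254 CPM, a ratio under 1.5-fold in the other direction, and 152 and 99.2 CPM without the barcodes that hold a UMI of the dividing-cell genes Mki67 or Top2a. Gapdh is therefore 1 of 2 members lower in 4 classes, the other being Pgk1, whose T cell ratio was under 1.5-fold in 3 of 10 alternative settings. The annotation holds 148 near-identical copies of it, and how the authors' counting shared reads among them is not given, so its level is uncertain.

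Later steps of the pathway had the same order. Pkm was lower in CP+EVs 2.31-fold in monocytes (639 and 276 CPM), 1.87-fold in macrophages (493 and 263) and 1.90-fold in fibroblasts (205 and 108). Tpi1 was 1.98-fold, 2.16-fold and 1.70-fold lower in the same classes, and Pgk1, which makes the first ATP of the pathway, 2.32-fold, 2.42-fold and 2.35-fold. Ldha was 1.74-fold lower in macrophages (414 and 238 CPM) and 1.87-fold in fibroblasts (285 and 152), with 420 and 315 CPM in monocytes. Eno1, the enolase gene, was 2-fold lower in macrophages and 2.38-fold in fibroblasts. Pgam1, with 6 and 7 UMIs in CP+EVs, was 3.39-fold lower in monocytes (1.52 to 9.42) and 3.78-fold in macrophages (1.74 to 9.74). Aldoa and Gpi1 stayed under 1.5-fold in all 5 classes.

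At the entry of glucose the order was mixed. Slc2a1, which encodes GLUT1, was 2.04-fold lower in CP+EVs fibroblasts (26.6 and 13 CPM), and Hk2, the hexokinase that HIF raises, 1.95-fold lower (142 and 72.8). Hk1, the more constant hexokinase, was 1.55-fold higher there (27.4 and 42.3 CPM). The platelet-type phosphofructokinase gene Pfkp was higher in CP+EVs in 4 classes: 2.17-fold in monocytes (65.9 and 143 CPM; 1.75 to 2.67), 1.73-fold in macrophages (67.8 and 117), 1.65-fold in fibroblasts (48.4 and 79.9) and 1.90-fold in B cells (31.4 and 59.8). In T cells it had 134 and 115 CPM. Pfkl and Pfkm, the other subunits, were below the level needed in all 5 classes.

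Lactate transporters were lower as well. Slc16a3 had 88.6 and 25.5 CPM in monocytes, 3.47-fold lower (2.27 to 5.59), and 44.8 and 11.6 CPM in macrophages, 3.84-fold lower (2.17 to 7.41). Slc16a1 was 1.84-fold lower in fibroblasts (48.6 and 26.5 CPM; 1.60 to 2.12), and its T cell levels were 66.4 and 94.2 CPM. In monocytes its ratio of 1.61-fold lower had an interval that spans 1 (0.947 to 2.95), and the mean of per-cell levels put the log2 ratio at 0.17.

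Among the hypoxia genes, Hif1a (chr12:73901375-73947530, plus strand) was lower in CP+EVs in the same 3 classes. It stood at 353 and 175 CPM in monocytes, 2.01-fold lower (1.71 to 2.39), at 222 and 133 in macrophages, 1.66-fold lower (1.39 to 2), and at 216 and 80.1 in fibroblasts, 2.69-fold lower (2.49 to 2.91). T cells (238 and 232 CPM) and B cells (118 and 136) differed by under 1.5-fold. The mRNA was measured and not the protein, whose amount is set largely by its breakdown. A listed gene, Gm49321, shares exon bases with Hif1a on the same strand and held 0 UMIs.

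Vegfa had 129 and 47.6 CPM in monocytes, 2.70-fold lower (1.97 to 3.80; a log2 ratio of −1.42, which was −0.51 with 1 more marker in the gate and −0.58 with per-cell means, both under 1.5-fold), and 98.8 and 26.0 CPM in macrophages, 3.80-fold lower (2.59 to 5.78). Its fibroblast levels were 160 and 140 CPM, which differ by under 1.5-fold. Mif was 1.8-fold, 2.56-fold and 2.94-fold lower in monocytes, macrophages and fibroblasts (92.4 and 31.4 CPM in fibroblasts). Egln3 was 6.30-fold lower in fibroblasts (28.2 and 4.47 CPM; 4.64 to 8.73), and the neutrophil markers in that class would carry 2.97 of the 28.2 CPM. T cells held 51.2 and 57.6 CPM of Egln3.

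Fibroblasts also held hypoxia genes with the opposite order. Adm (chr7:110627661-110629820, plus strand), which encodes the vasodilator peptide adrenomedullin, had 157 CPM in CP and 336 in CP+EVs, 2.14-fold higher (2.03 to 2.25). Ndrg1 had 83.9 and 134 CPM, 1.60-fold higher (1.48 to 1.73), and Ddit4, an inhibitor of the growth kinase mTORC1, 20.8 and 33.2 CPM, 1.59-fold higher (1.36 to 1.86). Of 11 measured hypoxia genes 3 were higher and 4 lower in this class, and of 13 measured enzymes and transporters 2 were higher and 9 lower. Of 6741 genes 13.3% were higher and 13.9% lower. Hypoxia genes were less mixed in the other 2 classes. In monocytes 0 of 8 were higher and 5 lower, beside 14.9% and 21.3% of genes. In macrophages 1 of 8 was higher and 4 were lower, beside 11.4% and 24.5%. P4ha1 and P4ha2, which encode subunits of the same hydroxylase, had their highest level in fibroblasts in both libraries. P4ha1 stood at 259 and 184 CPM and P4ha2 at 76.2 and 51.0, both under 1.5-fold. After thinning, 13.6% of 1392 CP and 25.2% of 1382 CP+EVs fibroblast barcodes held an Adm UMI (37.2% and 58.0% before thinning). Adm was also higher in CP+EVs macrophages, with 5.27 and 23.3 CPM from 16 and 26 UMIs. It reached the 20 CPM limit there only in CP+EVs, and the part of free fibroblast RNA in that level was not tested. In the acinar class, where Adm stood at 37.6 CPM, it was within the reach of free RNA from other cells.

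In both libraries 4 hypoxia genes had their highest level in T cells: Pdk1, Egln1, Ddit4 and Higd1a. For Ddit4, and in CP+EVs for Higd1a, the interval overlapped that of the next class, and the same count over all genes was not made. Pdk1, which encodes a kinase of the pyruvate dehydrogenase complex, had 63.5 and 106 CPM, 1.66-fold higher in CP+EVs (1.32 to 2.10). Ddit4 had 23.2 and 41.4 CPM, 1.78-fold higher (1.22 to 2.62). The lower members were Gapdh and Pgk1 (44.1 and 24.6 CPM, 1.79-fold). Of 10 alternative settings, 3 put Pgk1 under 1.5-fold, with a log2 ratio of up to −0.02 against −0.83, and 3 put Pdk1 under it, with a ratio down to 0.42 against 0.73. Both were under it after thinning and without barcodes that hold a UMI of Mki67 or Top2a. The markers of NK and innate lymphoid cells summed to 994 CPM in the T cell class of CP and 235 in that of CP+EVs, and their part in these values was not tested. The other 19 of 23 measured members differed by under 1.5-fold in T cells. Over 6880 genes 8.68% were lower and 5.67% higher there, so this closeness is not shown to be particular to the members.

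B cells had the opposite order for several members. Tpi1 had 77.0 and 183 CPM, 2.38-fold higher in CP+EVs (1.88 to 3.05), Mif 73.0 and 157, 2.15-fold (1.68 to 2.77), and Ldha 236 and 389, 1.65-fold (1.44 to 1.90). Also higher were Pfkp, Egln1, Hk1 and Pgk1, each under 2-fold. Lower were Vegfa (22.3 and 11.6 CPM, in CP within the reach of free RNA), Slc2a1 (53.7 and 32.7), Hk2 and Pfkfb3. Of 10 alternative settings, 2 put Vegfa under 1.5-fold, 3 put Slc2a1 under it, and 4 each put Hk2 and Pfkfb3 under it. Of the higher members, 3 settings put Ldha under it, 2 each Mif and Hk1, 1 each Tpi1, Pgk1 and Egln1, and 0 Pfkp. Ldha and Mif were under it after thinning to 1000 UMIs, and thinning put Pgk1 at a log2 ratio of −0.68. The share of B cell barcodes with a UMI of Mki67 or Top2a, genes of dividing cells, was 14.4% of 327 in CP and 41.0% of 727 in CP+EVs, at median depths of 2331 and 4188 UMIs.

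Within B cells Ldha, Tpi1 and Mif stood higher in barcodes with such a UMI. In CP+EVs Ldha stood at 478 CPM in the 298 barcodes with it and at 214 in the 429 without, Tpi1 at 254 and 44.2, and Mif at 202 and 66.6. In CP, with 47 and 280 barcodes, Ldha stood at 283 and 219 CPM, Tpi1 at 155 and 48.5 and Mif at 102 and 62.3, with overlapping intervals for Ldha and Mif. Among barcodes without such a UMI the log2 ratio of CP+EVs over CP was −0.15 for Tpi1, −0.03 for Ldha and 0.09 for Mif, against 1.24, 0.72 and 1.09 over all B cells. Pgk1 went from 0.61 to −0.69 and Gapdh from 0.42 to −0.62. Of the 7 members at least 1.5-fold higher over all B cells, Hk1 and Pfkp were also higher without those barcodes, at log2 ratios of 1.16 and 0.61. Ndrg1, which was below the level needed over all B cells, was at 1.29. These rest on few CP UMIs: 11 of Hk1 (15.2 CPM), 6 of Ndrg1 (8.31 CPM) and 22 of Pfkp (30.5 CPM). Hk1 and Ndrg1 reached 20 CPM only in CP+EVs (35.2 and 21.8 CPM), so they could be called only as higher there. Barcodes with a UMI of Mki67 or Top2a were also deeper, with a median of 7624 UMIs against 3216 in CP+EVs. In monocytes the share of barcodes with a UMI of Mki67 or Top2a was 23.4% in CP and 40.4% in CP+EVs. Without those barcodes, 563 were left in CP and 53 in CP+EVs, and 3 of 25 measured members were higher in CP+EVs. The share of all genes was not counted at that setting, so this count is not shown to be particular to the members.

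**Figure D4:**
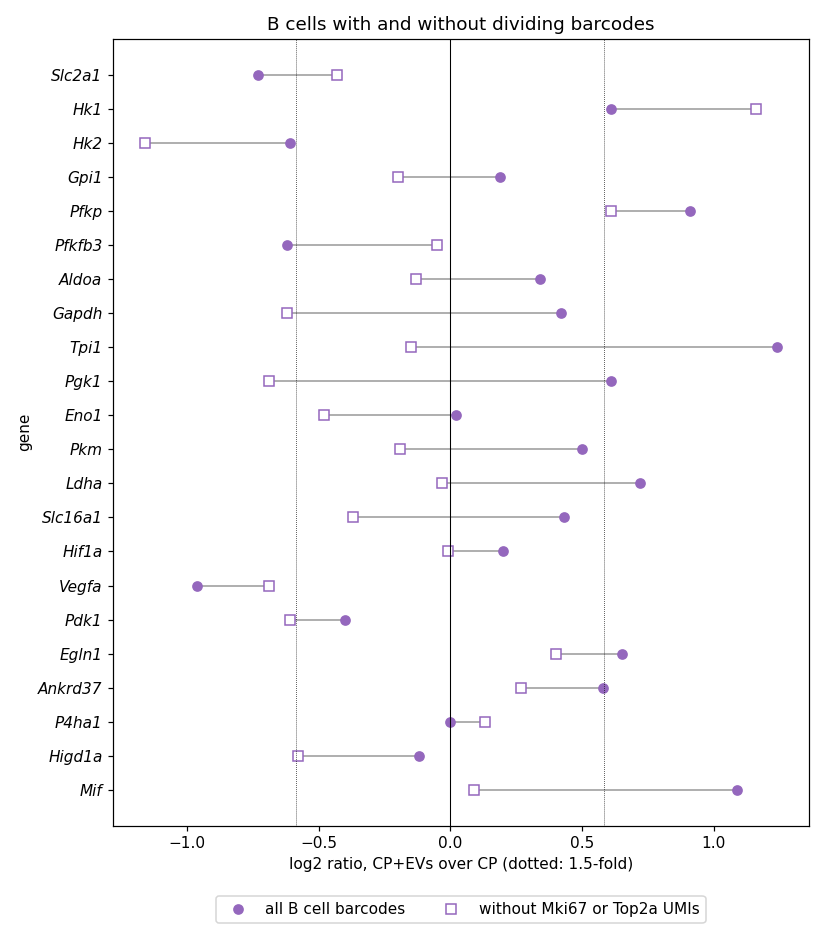
Log2 ratio of CP+EVs over CP in B cells for the 22 measured members, over all barcodes (filled circles) and without barcodes holding a UMI of Mki67 or Top2a (open squares), with dotted lines at 1.5-fold. Tpi1, Pgk1, Ldha and Mif lie right of the upper dotted line over all barcodes and at or left of 0.09 without those barcodes, while Hk1 and Pfkp stay right of it.

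Other genes of the pathways, from lists that hold no member, were read in the same way. The share of all measured genes lower in CP+EVs was 21.3% in monocytes, 24.5% in macrophages, 13.9% in fibroblasts, 8.68% in T cells and 15.8% in B cells, and the share higher was 14.9%, 11.4%, 13.3%, 5.67% and 15.2%. Of 25 further glucose genes, 3 of 11 measured were lower and 0 higher in monocytes, 2 of 11 and 0 in macrophages, 4 of 15 and 1 in fibroblasts, 2 of 13 and 0 in T cells and 4 of 15 and 2 in B cells. Of 27 further hypoxia genes, 8 of 14 were lower and 3 higher in monocytes, 5 of 15 and 1 in macrophages, 5 of 18 and 3 in fibroblasts, 5 of 18 and 2 in T cells and 5 of 15 and 1 in B cells. Their median log2 ratios ranged from −0.91 for hypoxia genes in monocytes to −0.04 for hypoxia genes in fibroblasts and for glucose genes in B cells.

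Fibroblasts of CP+EVs had 10.6-fold more of Pdk4, a kinase of the pyruvate dehydrogenase complex raised in fasting (2.85 and 30.2 CPM), and 7.04-fold more of Stc2 (6.23 and 43.9). Hilpda, a lipid droplet gene (41.7 and 16.7 CPM), and the collagen lysyl hydroxylase gene Plod2 (416 and 170) were the lowest there. Mxi1, a MYC antagonist, was lowest in monocytes (218 and 63.8 CPM) and in macrophages (153 and 31.3). The highest in monocytes was Bhlhe40, a repressor of the clock family, with 63.8 and 227 CPM. In T cells Epas1, the HIF-2alpha gene, was highest (20.4 and 40.2 CPM). The fibroblast gene Lox was lowest in B cells (62.8 and 17.2 CPM) and 2.47-fold lower in T cells. The fibroblast markers summed to 2898 and 1120 CPM in these B cells and to 2718 and 1280 in the T cells, and their part in the Lox values was not tested.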

How the data were processed

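Single cells of mouse pancreas were profiled in 2 libraries grouped by the treatment label. The authors deposited raw UMI counts with no normalization, per the file headers. The submitters' processing notes name CASAVA 1.8, UMI-tools, Seurat and mm10 but not what each did. Not given in the sources used here are the aligner, annotation, strand use and cell-calling rule. Every barcode held at least 501 UMIs.

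Barcodes were kept from 200 genes upward and up to 25% mitochondrial UMIs (13409 in CP, 8799 in CP+EVs). A barcode passed a marker panel when the panel's UMIs exceeded the library mean with a Poisson tail under 0.0001 and at least 3 distinct markers had a UMI (2 for panels of under 7 markers). It entered a class only when exactly 1 of 17 panels and an endocrine panel was passed. Acinar barcodes also needed 10% of UMIs in acinar markers. All these limits, the endocrine panel included, were chosen with the data in view. No doublet caller was run, barcodes passing several panels were left out, and doublets may remain.

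UMIs were summed per class and library and turned into CPM, with exact Poisson 95% intervals, and shares of barcodes have exact Clopper-Pearson intervals in the tables. Log2 ratios add 0.5 counts, and ratio intervals are exact, given the sum of both counts. A gene was measured at 20 CPM in at least 1 of the 2 sums and 20 UMIs in all. A gene near that limit in its higher library or class is thus kept only through it. It was called at 1.5-fold. Where a symbol was listed repeatedly (43 symbols), its entry with the largest sum counted. Positions and near-identical copies (at least 95% identity over at least 100 bases) came from GENCODE vM21, which matched 31184 of 31253 identifiers, and promoters from RefSeq. Of the members, 15 had such a copy and 12 share exon bases with another listed gene, so their levels are less certain.

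The members and gene lists were chosen with earlier results of these data known. All members may be named, and of the other pathway genes the 2 highest and 2 lowest per class. The ratio steps were tested on simulated counts. Alternatives covered the gate, filters, scaling, denominator, per-cell means, thinning, fold, dividing cells and shared barcodes. Python 3.11.15, numpy 2.4.6 and scipy 1.17.1 were used.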

Additional observations from a re-analysis of the deposited data

Results flagged for a closer look

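For 6 members the libraries differed by at least 1.5-fold in opposite directions in different classes, and the difference between the classes was not tested. The share of all genes with such opposite ratios was not counted, so the number is not shown to be particular to the members. Values are log2 ratios of CP+EVs over CP. Tpi1 was at 1.24 in B cells and at −0.98 in monocytes, −1.11 in macrophages and −0.76 in fibroblasts. Pgk1 was at 0.61 in B cells and at −1.19, −1.25 and −1.23 in monocytes, macrophages and fibroblasts and −0.83 in T cells. Ldha was at 0.72 in B cells, −0.79 in macrophages and −0.90 in fibroblasts. Mif was at 1.09 in B cells and at −0.83, −1.34 and −1.55 in monocytes, macrophages and fibroblasts. Pdk1 was at 0.73 in T cells and −1.31 in monocytes, where CP+EVs held 7 UMIs. With per-cell means the monocyte value of Pdk1 was 0.56, without barcodes that hold a UMI of Mki67 or Top2a it was −0.52, and the T cell value was under 1.5-fold in 3 of 10 alternative settings. The T cell value of Pgk1 was also under 1.5-fold in 3 of 10. Ndrg1 was at 0.68 in fibroblasts and −1.07 in monocytes, and with per-cell means at 0.47 and −0.47, both under 1.5-fold. The 4 B cell values stand beside a share of barcodes with a UMI of Mki67 or Top2a of 14.4% in CP and 41.0% in CP+EVs, and without those barcodes they were −0.15 for Tpi1, −0.69 for Pgk1, −0.03 for Ldha and 0.09 for Mif.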

How the results depend on the processing

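No paired analysis was possible because each group has 1 library. Of 134 alternative counts of members past the fold, 98 stayed within 1.5 times the main count and 36 did not. The share of all genes past the fold was counted only in the main setting. No such share stands beside the alternative counts, so whether the members differ from all genes there is not shown. The lower members ranged from 8 to 15 in monocytes, 7 to 18 in macrophages, 7 to 17 in fibroblasts, 1 to 6 in T cells and 0 to 8 in B cells. Of 1664 alternative log2 ratios 1534 stayed within the counting interval of the main ratio, 121 left it, and 9 reversed a measured ratio of at least 1.5-fold. The 1664 include members below the level needed, such as Pfkl, Pfkm and Bnip3, whose intervals are often wide. Only measured ratios of at least 1.5-fold could be counted as reversed, so 1664 is not the number that could reverse. These totals therefore do not show how stable the called ratios are. Median of ratios scaling subtracts the median log2 ratio of all genes, which was −0.15 in macrophages, so ratios there moved up by that amount. In the other classes the shift was under 0.1 in size.

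With a 2-fold limit, the lower members were 7 in macrophages, 7 in fibroblasts, 1 in T cells and 0 in B cells, and the higher ones 1, 1, 0 and 2. With a filter at 50 CPM, 7 were lower and 3 higher in fibroblasts, 1 lower and 1 higher in T cells, 1 lower in B cells and 1 higher in macrophages, since fewer genes are measured. With no filter beyond 1 UMI in each library, 6 were lower in T cells and 8 in B cells. Thinned to 1000 UMIs, 1 was higher in macrophages, 3 in fibroblasts, 1 in T cells and 4 in B cells, and 1 was lower in T cells and 2 in B cells. With means of per-cell CPM 2 were higher in monocytes, 1 lower in T cells and 1 lower in B cells. With 1 more marker in the gate 2 were higher in monocytes and 1 in T cells. Median of ratios scaling gave 4 higher in macrophages and 2 lower in B cells. Leaving acinar, Reg, mitochondrial, haemoglobin and immunoglobulin genes out of the denominator gave 2 lower in B cells.

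Alternatives chosen after seeing the data gave the following. Adding barcodes that pass both the monocyte and macrophage gates left 1 higher in macrophages. Without barcodes with a UMI of Mki67 or Top2a 3 were higher in monocytes, 4 higher and 1 lower in T cells and 3 higher in B cells. Without ribosomal and mitochondrial genes in the denominator 4 were lower in T cells. Without shared barcode sequences, and in the planned settings with at least 1000 UMIs or at most 10% mitochondrial UMIs, no count moved by over 1.5 times.

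Reversed log2 ratios were 0.17 for Slc16a1 and 0.56 for Pdk1 in monocytes (per-cell means), 0.33 for Slc16a1 and 0.16 for Higd1a in macrophages, 0.51 for Vegfa and −0.68 for Pgk1 in B cells (thinned), and −0.15 for Tpi1, −0.69 for Pgk1 and −0.03 for Ldha in B cells (without Mki67 or Top2a UMIs). The cause was not tested. Depth limits the classes with few barcodes, above all CP+EVs monocytes and CP B cells, where members with under 20 UMIs have wide intervals.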
